A study of Rattus norvegicus with 30 samples.

Results

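The genes described here are Sele, Selp, Icam1, Icam2, Vcam1, Angpt1, Angpt2 and Selplg, which encode 8 proteins of endothelial activation and leukocyte adhesion. They were chosen by symbol, and each had 1 row among the 22914 genes with deposited counts. The files place Sele (ENSRNOG00000002723) and Selp (ENSRNOG00000002794) on chromosome 13, Icam1 (ENSRNOG00000020679) on chromosome 8, Icam2 (ENSRNOG00000025143) on chromosome 10, Vcam1 (ENSRNOG00000014333) on chromosome 2, Angpt1 (ENSRNOG00000005854) on chromosome 7, Angpt2 (ENSRNOG00000016696) on chromosome 16 and Selplg (ENSRNOG00000000699) on chromosome 12. Transcripts were measured by RNA-seq of polyadenylated RNA in whole lung of 30 male Sprague Dawley rats aged 8 weeks, with 3 rats in each of 10 groups. All rats were anaesthetised with pentobarbital and operated on, and lungs were taken 6 or 24 hours later. The pancreas was only slightly rotated in Sham-6h and Sham-24h, whereas Con-6h and Con-24h had sterile saline run into the biliopancreatic duct. In SAP-6h and SAP-24h the infusate was 5.0% sodium taurocholate at 0.1 mL per 100 g, a bile salt that causes severe acute pancreatitis (SAP) and, in turn, acute lung injury. DEX-6h and DEX-24h received taurocholate and intravenous dexamethasone (DEX), a synthetic glucocorticoid, at 10 mg/kg. Emo-6h and Emo-24h received taurocholate and intragastric emodin, an anthraquinone, at 40 mg/kg by the protocol and 10 mg/kg by the sample description. Drugs were given at 2 and 12 hours, of which the 6 hour groups had only the first, and the other groups were given the vehicles. The study describes rinsing of the pulmonary artery with saline before the lung was taken.

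Leukocytes leave the blood in steps. Selectins on activated endothelium (E-selectin and P-selectin) bind sugar-bearing ligands such as PSGL1, the product of Selplg, and make the cells roll, and the immunoglobulin-type proteins ICAM1, ICAM2 and VCAM1 then bind leukocyte integrins and hold the cells. Endothelial quiescence is kept in part by angiopoietin 1, a ligand made by pericytes and other mesenchymal cells that activates the endothelial receptor Tie2, whereas angiopoietin 2, made by endothelial cells, mostly opposes it. Many of the adhesion genes are known targets of NF-kB, a transcription factor that glucocorticoids restrain.

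Of the 8 genes, Sele, Icam1 and Vcam1 were matched in the RefSeq promoter table of the rat assembly GRCr8. The bases of these windows that lie before the RefSeq gene record are shown for Icam1 and Vcam1. Of the 8 genes, these are the ones that edgeR called at 2-fold between emodin and DEX. They are written 5′ to 3′ on the strand of the gene, with capitals for matches to GGNNNTTCC (an NF-kB type motif) or TATAAA on either strand.
Icam1, chr8:27829595-27829687, plus strand: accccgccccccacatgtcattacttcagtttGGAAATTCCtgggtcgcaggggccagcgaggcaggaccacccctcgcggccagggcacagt
Vcam1, chr2:206742784-206743033, minus strand: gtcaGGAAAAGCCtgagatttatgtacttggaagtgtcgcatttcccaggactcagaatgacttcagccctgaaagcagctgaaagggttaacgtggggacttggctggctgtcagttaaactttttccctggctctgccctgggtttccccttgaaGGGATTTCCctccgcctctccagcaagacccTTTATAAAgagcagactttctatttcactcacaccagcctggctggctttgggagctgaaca
In the table's windows of 300 bases, which run from 250 bases before to 50 bases after its start position, Icam1 held NF-kB type letters at -218, on both strands, and at -149, and TATAAA at -53. For Icam1 that start position lies 157 bases inside the RefSeq gene record. The matches at -149 and -53 therefore lie inside the record and outside the printed bases. Vcam1 held NF-kB type letters at -93 and, on the other strand, at -246, and TATAAA on both strands at -60 and -62, where the matches overlap. NF-kB type letters were present in 18.3% and TATAAA in 14.2% of the 33469 windows of the table, so neither is particular to these genes. The table's start position of Sele lies 517 bases inside its RefSeq gene record. Its window therefore holds no bases from before the record, and it is not shown. That window held none of these letters. The palindromic consensus of the glucocorticoid response element was in 0.439% of the windows and in none of the 3. The motifs were chosen after the sequences had been seen, and a match is not evidence of a bound site.

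Reads on genes numbered 16813949 to 34692306 per library, and replicates of 1 group differed by 37.4 to 208 times the counting variance over all genes, a ratio that need not hold for a gene with few reads such as Sele. Surfactant and other alveolar type 2 markers summed to 25225 to 48229 FPKM in every library. All 17 endothelial markers found were above 0.1 FPKM in every group, and their sum was 1919 to 2201 FPKM in SAP-24h, and 2075 to 2576 FPKM in the Sham-24h rats. Heart muscle markers varied from 7.46 to 326 FPKM between libraries. The study's mapping summary lists lower shares of uniquely mapped reads in groups given taurocholate than in Sham and Con, so that a difference in read processing and taurocholate cannot be told apart in those comparisons.

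The 8 genes were expressed at very different levels. FPKM, the number of fragments scaled by transcript length and by library size, allows genes to be compared per length. The median over the 30 rats was 95.98 FPKM for Icam1, 83.3 FPKM for Icam2 and 39.4 FPKM for Selplg. It was 5.71 FPKM for Vcam1, 3.81 FPKM for Selp, 2.88 FPKM for Angpt2, 2.78 FPKM for Angpt1 and 0.395 FPKM for Sele. The selectins varied most: the highest rat had 353 times the FPKM of the lowest for Sele and 70.1 times for Selp. The ratio was 2.49 for Angpt2 and 2.76 for Icam2, the lowest of the 8. Sele rested on 1 to 436 reads per library, and the other 7 genes on at least 57.

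**Figure D1:**
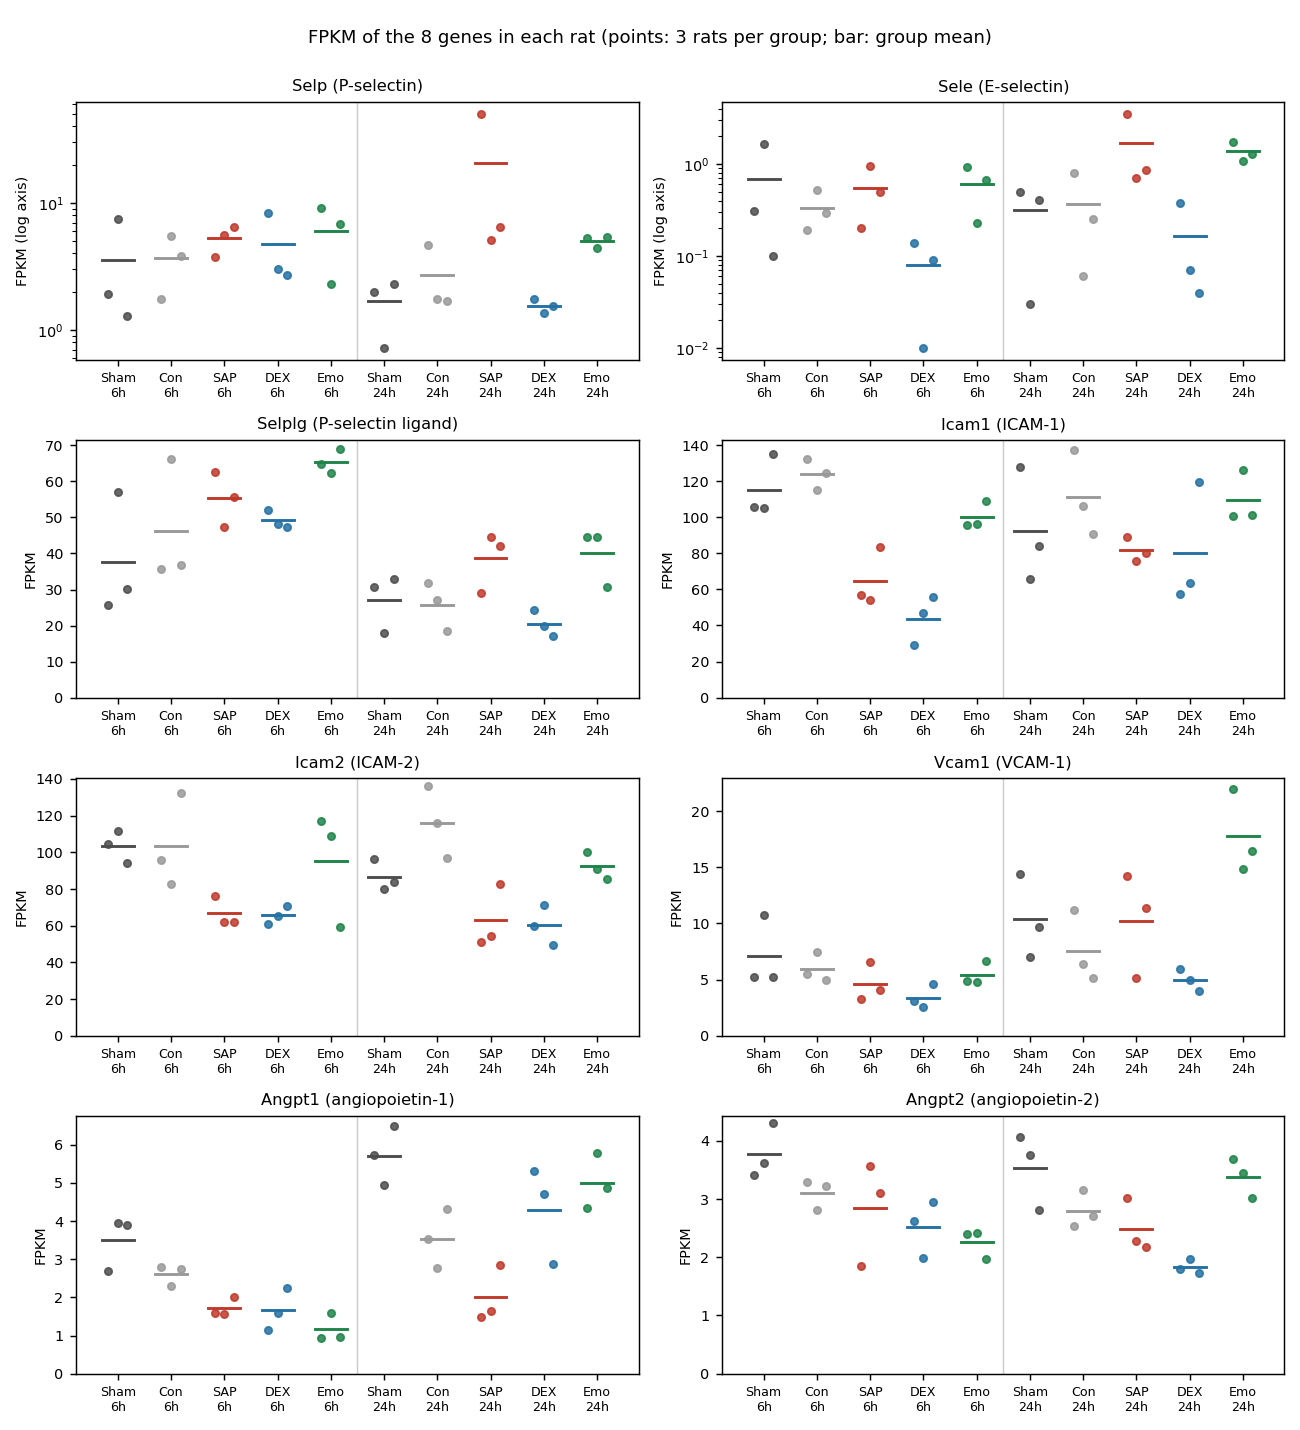
FPKM of each gene in each rat, by group (points, 3 rats per group; bars, group means; Selp and Sele on a log axis). Replicate 1 of SAP-24h stands at 50.5 FPKM for Selp, Angpt1 is low in the taurocholate groups at 6 hours and in SAP-24h, and Vcam1 is highest in Emo-24h.

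Counts were compared with edgeR's quasi-likelihood test in 21 comparisons of 2 groups and 3 interactions with time, and a gene was called when its Benjamini-Hochberg adjusted p over 15934 genes was under 0.05 and its change at least 2-fold. The 8 genes gave 17 calls in 11 of the 21 comparisons, and 1 in an interaction. Angpt1 was called in 7 comparisons, Selp and Vcam1 in 3 each, Icam1 in 2, Sele and Selplg in 1 each, and Icam2 and Angpt2 in none. In the model, with 20 residual degrees of freedom, all groups share one estimate of the spread. Of the 18 calls, 6 were kept when the compared groups were fitted alone, with each compared rat left out in turn and under every other setting tried. These were Icam1 in DEX-6h vs Sham-6h, Angpt1 and Selplg in DEX-24h vs DEX-6h, Angpt1 and Vcam1 in Emo-24h vs Emo-6h, and Vcam1 in Emo-24h vs DEX-24h. The other 12, among them Angpt1 in SAP-24h vs Sham-24h (adjusted p = 0.0821), were lost when the compared groups were fitted alone, with adjusted p from 0.0627 to 0.216.

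**Figure D2:**
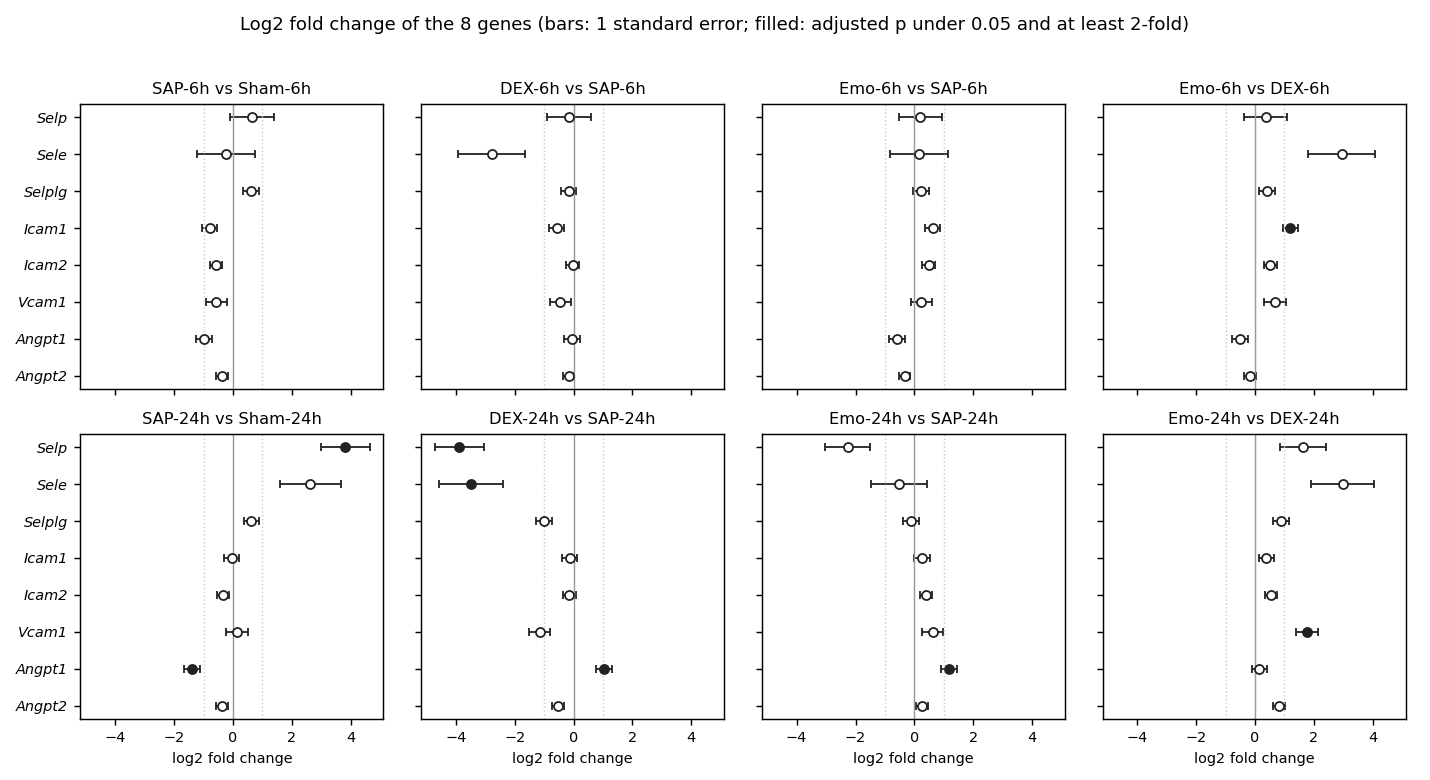
Log2 fold change (bars, 1 SE) of the 8 genes in 8 comparisons, with filled points for calls and dotted lines at 2-fold. The selectins have the widest errors, and Selp and Sele move left in DEX-24h vs SAP-24h. Angpt1 moves left in SAP-24h vs Sham-24h. At 24 hours it moves right with either drug.

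Taurocholate was compared with both controls at each time. In SAP-6h vs Sham-6h, edgeR and DESeq2 each called 0 of the 8 genes, where edgeR called 0.220% of all genes, and 4 had an unadjusted p under 0.05. The median log2 fold change of the 8 was -0.47, that of all genes -0.02. The numbers for SAP-6h vs Con-6h were 0 by both tools, 0.163% of all genes and 2 genes by unadjusted p. The saline infusion alone gave 0 by both tools in Sham-6h vs Con-6h, with 0% of all genes called and 0 members by unadjusted p. At 24 hours, 2 of the 8 genes were called in SAP-24h vs Sham-24h against 5.00% of all genes (median log2 fold change 0.05, that of all genes -0.03), and 1 in SAP-24h vs Con-24h against 6.91%. In Sham-24h vs Con-24h none of the 8 was called by either tool, with 1 by unadjusted p and 1.00% of all genes called.

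DEX and emodin were compared with untreated SAP and with each other. At 6 hours, 0 members were called by edgeR and by DESeq2 in DEX-6h vs SAP-6h (2 by unadjusted p, 0.515% of all genes called) and in Emo-6h vs SAP-6h (3 by unadjusted p, 0.0251% of all genes). In Emo-6h vs DEX-6h 1 member was called, against 1.41% of all genes. At 24 hours, 3 of 8 were called in DEX-24h vs SAP-24h against 3.73% of all genes, 1 in Emo-24h vs SAP-24h against 3.19%, and 1 in Emo-24h vs DEX-24h against 5.06%. The median log2 fold change of the 8 genes was -0.77 in DEX-24h vs SAP-24h and 0.86 in Emo-24h vs DEX-24h, and that of all genes was 0.00 and 0.01. These 2 comparisons share the DEX-24h rats.

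Against Sham, edgeR called 2 members and DESeq2 3 in DEX-6h, where edgeR called 3.97% of all genes, and 1 was called in Emo-6h, where 0.477% of all genes were. At 24 hours edgeR and DESeq2 called 0 members in DEX-24h vs Sham-24h (3 by unadjusted p, 4.15% of all genes called) and 0 in Emo-24h vs Sham-24h (2 by unadjusted p, 0% of all genes). From 6 to 24 hours, 2 members were called in DEX against 7.14% of all genes, 2 in Emo against 9.41% and 1 in SAP against 2.42%. In Sham and in Con, both tools called 0 members over the same time, with 1 by unadjusted p in each, and edgeR called 0.257% and 0.00628% of all genes. The interaction with time called 1 member for emodin against SAP, where it called 1.68% of all genes. For SAP against Sham and DEX against SAP, edgeR called 0 members with 0.0314% and 0.138% of all genes, 1 and 3 members had an unadjusted p under 0.05, and DESeq2 called 0 and 1.

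Selp was called higher in untreated SAP at 24 hours. It encodes P-selectin, which is stored in endothelial Weibel-Palade bodies and in platelet granules and captures rolling leukocytes. The rats of SAP-24h had 50.5, 5.11 and 6.48 FPKM and those of Sham-24h 1.99, 0.72 and 2.31 FPKM. All 3 rats of SAP-24h were above the 3 of Sham-24h, and replicate 1 was far above every other library of the study. Selp rose 14.2-fold in SAP-24h vs Sham-24h (log2 fold change 3.82 ± 0.82, SE, adjusted p = 0.00536). It also rose 8.77-fold over Con-24h, whose rats had 4.63, 1.74 and 1.69 FPKM (log2 fold change 3.13 ± 0.80, adjusted p = 0.00795). Both calls rested on 1 rat. Without replicate 1 of SAP-24h the log2 fold changes were 1.89 (adjusted p = 0.0852) and 1.18 (adjusted p = 0.233), and without replicate 2 of Con-24h the latter was 2.90 (adjusted p = 0.0507).

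That library also differed in cell markers. The 9 platelet markers found summed to 144 FPKM in replicate 1 of SAP-24h and to 37.9 and 50.95 FPKM in the other two, and their part in Selp was not tested. It was apart in other cell types too, with sums of 1502 FPKM against 3108 and 2959 FPKM for alveolar type 1 markers, 168 against 318 and 320.2 FPKM for macrophage markers and 42.3 against 127 and 83.7 FPKM for mesothelial markers. Of the 30 pairs of replicates in the study, it formed the most discordant one, with replicate 2 of SAP-24h, at 208 times the counting variance. In SAP-24h vs Sham-24h, where edgeR called 5.00% of all genes, edgeR and DESeq2 called 0 of the 9 platelet markers. Of these, 1 had an unadjusted p under 0.05 (median log2 fold change 0.77, that of all genes -0.03). In SAP-6h, where the platelet sum was 112 to 348 FPKM, Selp was 3.77 to 6.49 FPKM, and in Sham-6h it was 1.29 to 7.40 FPKM with a platelet sum of 46.9 to 118 FPKM. Of the 9 platelet markers edgeR called 0 and DESeq2 7 in SAP-6h vs Sham-6h, with 8 by unadjusted p, where edgeR called 0.220% of all genes. Their median log2 fold change was 1.98, that of all genes -0.02. Selp in SAP-6h vs Sham-6h had a log2 fold change of 0.64 ± 0.75 (adjusted p = 0.781).

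With DEX, Selp was near the level of the operated controls. The rats of DEX-24h had 1.76, 1.35 and 1.54 FPKM, all below the 3 of SAP-24h. The transcript fell 14.8-fold in DEX-24h vs SAP-24h (log2 fold change -3.89 ± 0.83, adjusted p = 0.00571), and by -1.94 on the log2 scale without replicate 1 of SAP-24h, which ended the call (adjusted p = 0.0907). Its log2 difference from Sham-24h was -0.07 ± 0.77 (adjusted p = 0.979). At 6 hours Selp was 8.36, 3.03 and 2.71 FPKM in DEX-6h, with a log2 difference from SAP-6h of -0.15 ± 0.74 (adjusted p = 0.978). In Emo-24h the values were 5.29, 4.39 and 5.40 FPKM, close to the 2 lower rats of SAP-24h. The log2 fold change in Emo-24h vs SAP-24h was -2.26 ± 0.77 and missed the threshold (adjusted p = 0.0654), although DESeq2 called it (-2.30), and it was -0.32 without replicate 1 of SAP-24h. In Emo-24h vs DEX-24h it was 1.63 ± 0.77 (adjusted p = 0.218), although the groups did not overlap.

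Sele encodes E-selectin, which endothelium makes after stimulation by cytokines. The rats of SAP-24h had 3.53, 0.70 and 0.87 FPKM, those of Sham-24h 0.50, 0.03 and 0.41 FPKM, and those of DEX-24h 0.38, 0.07 and 0.04 FPKM. Both of these groups lay below the 3 rats of SAP-24h. Sele fell 11.2-fold in DEX-24h vs SAP-24h (log2 fold change -3.49 ± 1.08, adjusted p = 0.0480). The call was lost without replicate 1 of SAP-24h (-2.27, adjusted p = 0.241), without replicate 2 of DEX-24h (-3.14, adjusted p = 0.165), without replicate 3 of DEX-24h (-3.05, adjusted p = 0.159), and with no filter on low counts (adjusted p = 0.0529). In SAP-24h vs Sham-24h the log2 difference was 2.63 ± 1.03 and did not pass (adjusted p = 0.0928). Con-24h, with 0.79, 0.06 and 0.25 FPKM, overlapped SAP-24h, and that difference of 2.39 ± 1.02 did not pass either (adjusted p = 0.0976).

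At 6 hours edgeR called no difference of Sele. It was 0.14, 0.01 and 0.09 FPKM in DEX-6h, which is 18, 1 and 12 reads, and 0.20, 0.95 and 0.50 FPKM in SAP-6h. The groups did not overlap, and the log2 difference was -2.79 ± 1.13 (adjusted p = 0.285). Sham-6h, with 0.31, 1.63 and 0.10 FPKM, overlapped both, and the log2 difference in DEX-6h vs Sham-6h was -3.03 ± 1.13 (adjusted p = 0.0888), which DESeq2 called (-3.04). It was -1.33 by edgeR without replicate 2 of Sham-6h, the rat with 1.63 FPKM. In Emo-24h it was 1.75, 1.09 and 1.27 FPKM, above every rat of DEX-24h, with a log2 difference of 2.97 ± 1.06 (adjusted p = 0.0848). DESeq2 called that difference.

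Selplg is expressed by leukocytes, so its level in whole lung reads the number of these cells as well as their RNA: fewer cells of a type and less RNA per cell cannot be told apart in bulk tissue. It was highest in Emo-6h (64.8, 62.4 and 68.9 FPKM) and lowest in DEX-24h (24.4, 19.8 and 17.1 FPKM). In DEX-6h the rats had 52.2, 48.2 and 47.3 FPKM, all above those of DEX-24h. Selplg fell 2.39-fold in DEX-24h vs DEX-6h (log2 fold change -1.26 ± 0.27, adjusted p = 0.00226). Over the same time the log2 difference was -0.45 ± 0.27 in Sham (adjusted p = 0.360) and -0.43 ± 0.27 in SAP (adjusted p = 0.330). It was -0.78 ± 0.27 in Con (adjusted p = 0.284) and -0.76 ± 0.27 in Emo (adjusted p = 0.0317, under 2-fold). The rats of the 2 times did not overlap in SAP, Con or Emo. The interaction of DEX against SAP with time was -0.83 ± 0.38 and did not pass (adjusted p = 0.346). In DEX-24h vs SAP-24h, where SAP-24h had 29.2, 44.6 and 42.1 FPKM, Selplg was 1.998-fold lower with an adjusted p of 0.0252, just short of the 2-fold threshold, and it was called with RLE scaling, with DESeq2 and with the replicate block. Emo-24h (44.55, 44.7 and 30.75 FPKM) exceeded DEX-24h in every rat by 1.86-fold (adjusted p = 0.0387), also under the fold threshold.

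Markers of leukocytes were measured beside it. In DEX-24h vs DEX-6h, where Selplg fell, 2 of 8 pan-leukocyte markers were called lower, where 7.14% of all genes were called (median log2 fold change -0.65, that of all genes 0.00), and their sum was 226 to 354 FPKM against 423 to 470 FPKM. At 24 hours the sum was 226 to 354 FPKM in DEX-24h, 464 to 675 FPKM in SAP-24h and 493 to 706 FPKM in Emo-24h. Of these markers 4 were called lower in DEX-24h vs SAP-24h, where 3.73% of all genes were called, also without replicate 1 of SAP-24h. They were Coro1a (log2 fold change -1.77 ± 0.33, adjusted p = 0.00232), Lcp1 (-1.42), Cd37 (-1.14) and Laptm5 (-1.01), with adjusted p of 0.0212 at most. In Emo-24h vs DEX-24h, against 5.06% of all genes, 4 were called higher. Their part in the level of Selplg was not tested. At 6 hours the pan-leukocyte sum was 525 to 597 FPKM in SAP-6h and 536 to 843 FPKM in Sham-6h, and Selplg was 47.5 to 62.7 and 25.8 to 57.1 FPKM, with overlap in both measures (log2 difference of Selplg 0.61 ± 0.27, adjusted p = 0.315). DEX-6h, in contrast, had a lower pan-leukocyte sum than every rat of Sham-6h, and its Selplg lay within the range of Sham-6h.

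Some leukocyte partners of the adhesion proteins fell with DEX at 24 hours. Of 16 such genes, 5 were called lower and 0 higher in DEX-24h vs SAP-24h, where 3.73% of all genes were called (median log2 fold change -0.60, that of all genes 0.00). Itgax, Itgal and Itgam, the alpha subunits of leukocyte integrins, and Itgb2, the beta subunit with which they bind ICAMs, changed by -2.91, -1.64, -1.53 and -1.73 on the log2 scale (adjusted p from 6.23e-05 for Itgb2 to 0.0150 for Itgam). Itgb2 went from 62.5 ± 6.8 FPKM in SAP-24h to 19.98 ± 4.88 FPKM in DEX-24h (SD, n = 3 each). Without replicate 1 of SAP-24h the number was again 5, and the change of Itgb2 was -1.77 (adjusted p = 0.000242). In SAP-24h vs Sham-24h, where 5.00% of all genes were called, 1 of the 16 rose, Itgam (log2 fold change 1.15 ± 0.37, adjusted p = 0.0450). This call was lost without that rat (1.13, adjusted p = 0.100). In Emo-24h vs SAP-24h edgeR called 0, or 1 lower without replicate 1 of SAP-24h, and DESeq2 called 1, with 6 by unadjusted p. In DEX-6h vs SAP-6h both called 0, with 7 by unadjusted p. In Emo-24h vs DEX-24h, where 5.06% of all genes were called, 6 were called higher and none lower. The chains of the VCAM1 receptor, named after their values had been seen, differed in direction there. Itga4, the alpha chain, was 2.25 ± 0.70 FPKM in Emo-24h against 1.06 ± 0.47 FPKM (log2 fold change 1.01 ± 0.32, adjusted p = 0.0455), and Itgb1, the beta chain, which many other cells express, was 179 ± 8 against 259 ± 20 FPKM (-0.60 ± 0.11, adjusted p = 0.00155, under 2-fold). In DEX-24h vs SAP-24h the log2 difference of Itgb1 was 0.47 ± 0.11 (adjusted p = 0.0119, under 2-fold). Most of these genes are themselves expressed by leukocytes. The pan-leukocyte markers called lower in DEX-24h vs SAP-24h are given above, and their part in the level of these genes was not tested.

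Among the immunoglobulin-type genes, Icam1 was lower in DEX-6h than in Sham-6h and Emo-6h, but not by the test than in SAP-6h. ICAM1 is inducible on endothelium and is also abundant on alveolar epithelium. The rats of DEX-6h had 29.2, 46.7 and 55.5 FPKM, those of Sham-6h 106, 105 and 135 FPKM, and those of Emo-6h 95.7, 96.3 and 109 FPKM. DEX-6h overlapped neither of these groups. Icam1 was 2.57-fold lower in DEX-6h vs Sham-6h (log2 fold change -1.36 ± 0.26, adjusted p = 0.00237), and the log2 fold change stayed between -1.54 and -1.14 with each compared rat left out. It was 2.30-fold higher in Emo-6h vs DEX-6h (1.20 ± 0.26, adjusted p = 0.0148), but without replicate 1 of DEX-6h the value was 0.97 (adjusted p = 0.115). Some markers of the cells that carry ICAM1 were called in these comparisons too. In DEX-6h vs Sham-6h, where 3.97% of all genes were called, 3 of 17 endothelial markers, 1 of 8 alveolar type 1 markers and 1 of 8 pan-leukocyte markers were called lower. Of 8 alveolar type 2 markers 0 were called, with 2 by unadjusted p. The endothelial sums overlapped, at 2438 to 2779 FPKM in DEX-6h and 2705 to 2916 FPKM in Sham-6h. The alveolar type 1 sums did too (2183 to 3851 and 2762 to 4272 FPKM), whereas the pan-leukocyte sums did not. In Emo-6h vs DEX-6h, against 1.41% of all genes, 2 of the 17 endothelial markers were called higher. There 0 of 8 alveolar type 1, 0 of 8 alveolar type 2 and 0 of 8 pan-leukocyte markers were called, with 1, 0 and 4 by unadjusted p. Their part in Icam1 was not tested.

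SAP-6h had 56.7, 54.05 and 83.6 FPKM and overlapped DEX-6h, with a log2 difference of -0.58 ± 0.26 in DEX-6h vs SAP-6h (adjusted p = 0.356). It was also below every rat of Sham-6h and of Con-6h (133, 115 and 124 FPKM). The log2 difference of SAP-6h from Sham-6h was -0.79 ± 0.26 and did not pass over all genes (adjusted p = 0.169). Its log2 difference from Con-6h was -0.87 ± 0.26 (adjusted p = 0.191). No rise of Icam1 was seen in any comparison of SAP with Sham or Con. At 24 hours the means were 81.7 ± 6.7 FPKM in SAP-24h, 80.1 ± 34.1 FPKM in DEX-24h, 92.4 ± 31.9 FPKM in Sham-24h and 109 ± 14 FPKM in Emo-24h (SD, n = 3 each), and the log2 difference between SAP-24h and Sham-24h was -0.04 ± 0.26 (adjusted p = 0.944). Replicate 3 of DEX-24h had 119 FPKM and the other two 57.5 and 63.45 FPKM. All were above the rats of DEX-6h, and the log2 difference in DEX-24h vs DEX-6h was 0.89 ± 0.26 (adjusted p = 0.0147, under 2-fold).

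Icam2, which endothelium and platelets express without stimulation, was called in 0 of the 21 comparisons by edgeR and by DESeq2, and had an unadjusted p under 0.05 in 8. It was 76.35, 62.25 and 62.3 FPKM in SAP-6h, below all rats of Sham-6h (104, 112 and 94.3 FPKM), and 61.0, 65.5 and 70.9 FPKM in DEX-6h. At 24 hours SAP-24h had 51.3, 54.6 and 82.8 FPKM and Con-24h 136, 116 and 96.65 FPKM, with no overlap. The log2 difference of -0.77 ± 0.21 had an adjusted p of 0.0130 but was 1.71-fold, under the fold threshold. The sum of the 17 endothelial markers was likewise lower, at 1919 to 2201 FPKM in SAP-24h and 2829 to 3512 FPKM in Con-24h. Of the 17, 9 had an unadjusted p under 0.05 and 1 was called in each direction, where 6.91% of all genes were called (median log2 difference -0.39). In Sham-24h vs Con-24h, with 1.00% of all genes called, edgeR and DESeq2 called 0 of the 17, with 9 by unadjusted p (median -0.35). The part of these markers in Icam2 was not tested. Emo-24h, with 100, 91.0 and 85.7 FPKM, was above every rat of SAP-24h and of DEX-24h (59.8, 71.25 and 49.45 FPKM), with log2 differences of 0.40 ± 0.21 (adjusted p = 0.229) and 0.55 ± 0.21 (adjusted p = 0.118).

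Vcam1 was highest in emodin-treated rats at 24 hours. VCAM1 holds lymphocytes and monocytes on cytokine-activated endothelium. The rats of Emo-24h had 22.0, 14.9 and 16.5 FPKM, those of DEX-24h 5.91, 4.94 and 3.99 FPKM, and those of Emo-6h 4.86, 4.78 and 6.63 FPKM. Emo-24h was above both groups without overlap, and also above every rat of Sham-24h (14.4, 7.03 and 9.67 FPKM). Vcam1 was 3.42-fold higher in Emo-24h vs DEX-24h (log2 fold change 1.77 ± 0.37, adjusted p = 0.00402) and rose 3.17-fold in Emo-24h vs Emo-6h (1.66 ± 0.37, adjusted p = 0.00158). With each compared rat left out these values stayed at 1.61 to 1.88 and 1.51 to 1.83. Against Sham-24h the log2 difference of Emo-24h was 0.76 ± 0.36 (adjusted p = 1.00), and against SAP-24h, the comparison with the untreated disease, it was 0.62 ± 0.36 (adjusted p = 0.273), so that neither was called although the rats did not overlap.

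In untreated SAP, Vcam1 had 3.23, 6.54 and 4.07 FPKM at 6 hours and 14.2, 5.13 and 11.4 FPKM at 24 hours, and the groups overlapped. It rose 2.42-fold in SAP-24h vs SAP-6h (log2 fold change 1.27 ± 0.37, adjusted p = 0.0403). The call was lost with the replicate number as a block (1.23, adjusted p = 0.0570), without replicate 1 of SAP-6h (1.11, adjusted p = 0.147), without replicate 3 of SAP-6h (1.19, adjusted p = 0.128), without replicate 1 of SAP-24h (0.90, adjusted p = 0.185) and without replicate 3 of SAP-24h (1.23, adjusted p = 0.0935). In Sham the log2 difference over the same time was 0.57 ± 0.36 (adjusted p = 0.388), and the interaction with time was 0.70 ± 0.51 (adjusted p = 0.617). SAP-24h and Sham-24h had means of 10.2 ± 4.6 and 10.4 ± 3.7 FPKM (SD, n = 3 each). The log2 difference in DEX-24h vs SAP-24h was -1.15 ± 0.36, with an adjusted p of 0.0536 by edgeR, and DESeq2 called it.

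Angpt1 showed the most calls of the 8 genes. The rats of SAP-24h had 1.49, 1.65 and 2.85 FPKM and those of Sham-24h 5.73, 4.94 and 6.48 FPKM, without overlap. Angpt1 fell 2.64-fold (log2 fold change -1.40 ± 0.27, adjusted p = 0.00278), and with each compared rat left out the value stayed between -1.71 and -1.26. The call was lost with the compared groups fitted alone, at a similar value (-1.39, adjusted p = 0.0821). The rats of Con-24h had 3.53, 2.76 and 4.32 FPKM and overlapped SAP-24h, with a log2 difference of -0.71 ± 0.27 in SAP-24h vs Con-24h (adjusted p = 0.0622), so the size of the fall depended on the control. Between the controls themselves, Sham-24h was above Con-24h by 0.69 ± 0.27 on the log2 scale (adjusted p = 0.0944).

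With either drug Angpt1 was higher at 24 hours than in untreated SAP. DEX-24h had 5.31, 4.70 and 2.87 FPKM and Emo-24h 4.33, 5.79 and 4.86 FPKM, both above the 3 rats of SAP-24h. Angpt1 was 2.04-fold higher in DEX-24h vs SAP-24h (log2 fold change 1.03 ± 0.27, adjusted p = 0.0213) and 2.26-fold higher in Emo-24h vs SAP-24h (1.18 ± 0.27, adjusted p = 0.0123). The DEX call was lost without replicate 1 or 2 of SAP-24h (0.90 in each case, adjusted p = 0.0921 and 0.0756) and without replicate 1 or 2 of DEX-24h (0.87 and 0.95, adjusted p = 0.0928 and 0.0781). The emodin call was lost without replicate 1 of SAP-24h (1.03, adjusted p = 0.0596) and without replicate 2 of Emo-24h (1.05, adjusted p = 0.0660). Emo-24h and DEX-24h differed by 0.15 ± 0.26 on the log2 scale (adjusted p = 0.829).

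At 6 hours Angpt1 was below Sham-6h in all groups given taurocholate. SAP-6h had 1.6, 1.57 and 2.01 FPKM, DEX-6h 1.15, 1.59 and 2.25 FPKM, and Emo-6h 0.94, 1.59 and 0.95 FPKM. Sham-6h, with 2.68, 3.94 and 3.90 FPKM, was above all of them. Angpt1 was 2.96-fold lower in Emo-6h vs Sham-6h (log2 fold change -1.56 ± 0.28, adjusted p = 0.00807) and 2.06-fold lower in DEX-6h vs Sham-6h (-1.04 ± 0.27, adjusted p = 0.0179). In SAP-6h vs Sham-6h the log2 difference was -0.98 ± 0.27, which passed neither threshold (adjusted p = 0.118). It was -0.53 ± 0.27 in SAP-6h vs Con-6h (adjusted p = 0.523), whose control rats had 2.79, 2.30 and 2.74 FPKM. The emodin call was lost without replicate 1 of Emo-6h (-1.44, adjusted p = 0.0619). The DEX call was lost without replicate 2 of Sham-6h (-0.95, adjusted p = 0.0552), replicate 3 of Sham-6h (-0.94, adjusted p = 0.0571) or replicate 1 of DEX-6h (-0.83, adjusted p = 0.111).

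Between 6 and 24 hours Angpt1 rose 4.19-fold in Emo (log2 fold change 2.07 ± 0.28, adjusted p = 3.20e-05) and 2.63-fold in DEX (1.40 ± 0.27, adjusted p = 0.00101), in each case without overlap. The log2 difference was 0.72 ± 0.27 in Sham (adjusted p = 0.128), also without overlap, 0.48 ± 0.27 in Con (adjusted p = 0.550) and 0.30 ± 0.27 in SAP (adjusted p = 0.511), and none of these passed. The test of the difference itself, the interaction of emodin against SAP with time, was 1.76 ± 0.39 (adjusted p = 0.0235). For DEX against SAP the interaction was 1.09 ± 0.38 (adjusted p = 0.206). Pericyte markers, of which 8 were measured, summed to 95.4 to 147 FPKM in SAP-24h, 142 to 185 FPKM in Sham-24h, 91.2 to 117 FPKM in DEX-24h and 134 to 171 FPKM in Emo-24h. Their part in Angpt1 was not tested. Of the 8, only Kcnj8, a potassium channel subunit, was called in SAP-24h vs Sham-24h, against 5.00% of all genes. It was higher there (log2 fold change 2.30 ± 0.55, adjusted p = 0.0104), whereas the median of the 8 was -0.37. With either drug at 24 hours Kcnj8 was again the only one called, and was lower than in untreated SAP. The shares of all genes called were 3.73% for DEX and 3.19% for emodin. The medians of the 8 were -0.15 and 0.44. Without replicate 1 of SAP-24h, the call against Sham-24h was lost (0.58, adjusted p = 0.341). So was the emodin call (-0.63, adjusted p = 0.309).

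Angpt2, stored with P-selectin in Weibel-Palade bodies, varied little and was called in 0 of the 21 comparisons by edgeR and by DESeq2, with an unadjusted p under 0.05 in 7. It was 3.02, 2.28 and 2.17 FPKM in SAP-24h and 4.06, 3.75 and 2.81 FPKM in Sham-24h, which overlap (log2 difference -0.37 ± 0.20, adjusted p = 0.231). The lowest level was in DEX-24h, with 1.79, 1.97 and 1.73 FPKM, below every rat of Sham-24h and of Emo-24h (3.68, 3.45 and 3.02 FPKM). The log2 differences of -0.91 ± 0.20 in DEX-24h vs Sham-24h (adjusted p = 0.00677) and 0.82 ± 0.20 in Emo-24h vs DEX-24h (adjusted p = 0.0124) passed the p threshold but were under 2-fold. In Emo-6h it was 2.40, 2.41 and 1.97 FPKM, and the log2 difference in Emo-24h vs Emo-6h was 0.54 ± 0.20 (adjusted p = 0.0406).

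The ratio of Angpt2 to Angpt1 in FPKM therefore followed mostly Angpt1. It was 2.03, 1.38 and 0.761 in SAP-24h and 0.709, 0.759 and 0.434 in Sham-24h, and the lowest rat of SAP-24h, at 0.761, was only just above the highest of Sham-24h, at 0.759. Con-24h, with ratios of 0.720, 1.14 and 0.625, overlapped SAP-24h. The ratio was 0.603 at most in DEX-24h and 0.850 at most in Emo-24h. The highest group mean was in Emo-6h, 2.05 ± 0.52, against 1.10 ± 0.18 in Sham-6h (SD, n = 3 each). The ratio was not tested.

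**Figure D3:**
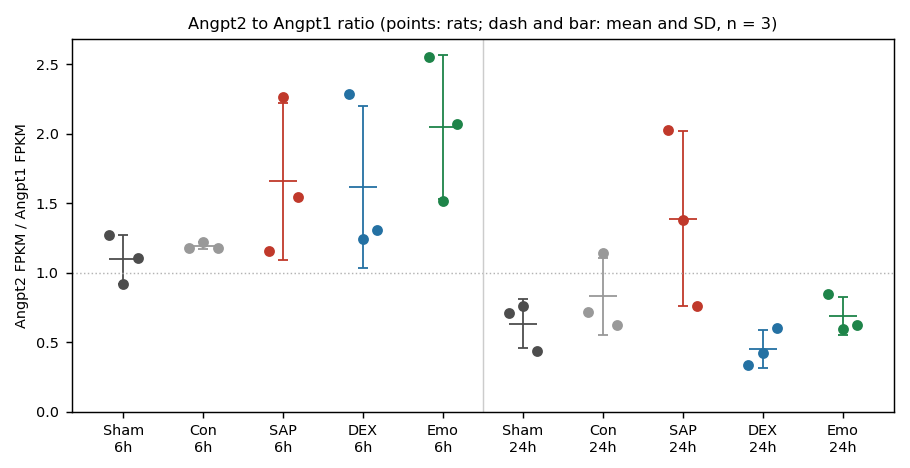
Ratio of Angpt2 to Angpt1 FPKM in each rat (points), with the group mean and SD (n = 3). At 6 hours the means of the 3 taurocholate groups lie above those of Sham and Con, and at 24 hours only SAP-24h has a mean above 1.

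The genes of the Tie receptors, Tek and Tie1, were not called between SAP-24h and Sham-24h. Tek, which encodes Tie2, was 98.7 ± 2.6 FPKM in SAP-24h against 93.0 ± 9.7 FPKM in Sham-24h (SD, n = 3 each; log2 difference 0.21 ± 0.17, adjusted p = 0.420), and Tie1, its relative, was 39.2 ± 3.1 and 54.5 ± 5.6 FPKM (-0.35 ± 0.26, adjusted p = 0.389). Between times Tie1 differed more, with 71.5 ± 3.3 FPKM in SAP-6h (SAP-24h vs SAP-6h -0.77 ± 0.26, adjusted p = 0.0733) and with 64.8 ± 12.7 FPKM in DEX-6h against 35.0 ± 5.5 FPKM in DEX-24h (-0.87 ± 0.26, adjusted p = 0.0166, under 2-fold). Tek went the other way in DEX-24h vs DEX-6h (0.52 ± 0.17, adjusted p = 0.0236, under 2-fold). Of 8 genes of this pathway beside the ligands described above, edgeR and DESeq2 called 0 in SAP-24h vs Sham-24h, Emo-24h vs SAP-24h and DEX-6h vs SAP-6h, with 3, 2 and 1 by unadjusted p. The 1 call in DEX-24h vs SAP-24h, where 3.73% of all genes were called, was Dok2, an adaptor of Tie2 that leukocytes also express (log2 fold change -1.39 ± 0.41, adjusted p = 0.0401). Dok2 was not called without replicate 1 of SAP-24h (-1.27, adjusted p = 0.113). Tek and Tie1 were named as the genes of the Tie receptors, after their values had been seen.

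Of 12 genes of Weibel-Palade bodies, the store of P-selectin, 2 rose and none fell in SAP-24h vs Sham-24h, where 5.00% of all genes were called (median log2 fold change 0.27, that of all genes -0.03). These were Plat, tissue plasminogen activator, from 96.9 ± 23.5 to 338 ± 181 FPKM (log2 fold change 1.96 ± 0.43, adjusted p = 0.00565), and Ece1, which activates endothelin, from 95.4 ± 6.4 to 187 ± 51 FPKM (1.12 ± 0.20, adjusted p = 0.00203). Plat was lower in Emo-24h vs SAP-24h (-1.65 ± 0.42, adjusted p = 0.0209). These calls also rested on replicate 1 of SAP-24h: without it the values were 1.36 for Plat (adjusted p = 0.0510) and 0.82 for Ece1 (adjusted p = 0.0150, under 2-fold) in SAP-24h vs Sham-24h, and -1.06 for Plat in Emo-24h vs SAP-24h (adjusted p = 0.130). In DEX-24h vs SAP-24h and DEX-6h vs SAP-6h both tools called 0 of the 12, with 4 and 1 by unadjusted p. Without replicate 1 of SAP-24h edgeR called 1 of the 12 higher in DEX-24h vs SAP-24h. Vwf, the main protein of these bodies, was 71.0 ± 5.2 FPKM in SAP-24h against 62.9 ± 10.8 FPKM in Sham-24h (log2 difference 0.31 ± 0.21, adjusted p = 0.336), a gene named for that role after its values had been seen.

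Of 15 regulators of endothelial activation, 2 rose and none fell in SAP-24h vs Sham-24h, where 5.00% of all genes were called (median log2 fold change 0.61, that of all genes -0.03). Tnfrsf1a, a receptor of tumour necrosis factor, went from 55.9 ± 10.1 to 120 ± 47 FPKM (log2 fold change 1.25 ± 0.20, adjusted p = 0.00106), and Relb, a subunit of NF-kB, from 4.40 ± 1.33 to 8.68 ± 2.72 FPKM (1.12 ± 0.26, adjusted p = 0.00788). In DEX-24h vs SAP-24h, Tnfrsf1a (-1.13 ± 0.20, adjusted p = 0.00191) and Irf1, an interferon-responsive factor (-1.004 ± 0.275, adjusted p = 0.0267), fell and none rose, where 3.73% of all genes were called. In Emo-24h vs SAP-24h and DEX-6h vs SAP-6h both tools called 0, with 8 and 3 by unadjusted p. Without replicate 1 of SAP-24h none of these calls was kept, with values of 0.82 for Tnfrsf1a and 0.95 for Relb in SAP-24h vs Sham-24h, which were under 2-fold, and -0.68 for Tnfrsf1a and -0.58 for Irf1 in DEX-24h vs SAP-24h. Of 15 other endothelial adhesion and junction genes, Esam, an endothelial junction protein, fell in DEX-24h vs SAP-24h (-1.03 ± 0.22, adjusted p = 0.00599), and by -0.56 without that rat (adjusted p = 0.0600). In SAP-24h vs Sham-24h, Emo-24h vs SAP-24h and DEX-6h vs SAP-6h both tools called 0 of the 15, with 3, 3 and 2 by unadjusted p.

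Endothelial markers were called in both directions in SAP-24h vs Sham-24h, where 5.00% of all genes were called. Of 17 found, Flt1, a receptor of vascular endothelial growth factor, rose from 22.9 ± 2.9 to 54.0 ± 19.7 FPKM in SAP-24h vs Sham-24h (log2 fold change 1.39 ± 0.33, adjusted p = 0.00943), and Emcn, a sialomucin of capillaries and veins, fell from 85.2 ± 13.4 to 34.4 ± 11.01 FPKM (-1.19 ± 0.24, adjusted p = 0.00319). Without replicate 1 of SAP-24h Emcn was still called (-1.06, adjusted p = 0.0234) and Flt1 was not (0.996, adjusted p = 0.0696). In DEX-24h and in Emo-24h, each against SAP-24h, edgeR called 0 of the 17 and DESeq2 0 and 1, with 7 by unadjusted p in each. Of all genes, edgeR called 3.73% and 3.19% in these comparisons. Without replicate 1 of SAP-24h edgeR called 2 of the 17 higher in DEX-24h vs SAP-24h. In DEX-6h vs SAP-6h, where 0.515% of all genes were called, 1 fell, Sox18, an endothelial transcription factor (-1.19 ± 0.24, adjusted p = 0.0204).

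Across the 30 rats, deviations from the group means of log2 CPM showed which genes varied together between rats given the same treatment. Selp and Sele had Pearson's r of 0.794 (Spearman's rho 0.816), Sele and Vcam1 0.745, and Selp and Vcam1 0.641. Without the 2 rats farthest from the median of Sele, r was 0.755 for Selp and Sele and 0.698 for Sele and Vcam1. Without the 2 rats farthest from the median of Selp, r was 0.514 for Selp and Vcam1. Icam1 did not take part in this, with r of -0.0426 to Sele and 0.0657 to Selp. Angpt1 and Selplg had r of -0.846 over the 10 group means and 0.0811 over the deviations. These values describe 28 pairs, and the points share library preparation and cell composition.

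By the same measure over the 10 group means, the genes most like each member were Mycn and LOC100909879 for Sele, Socs3 and AABR07058914.1 for Selp, Radil and Foxs1 for Icam1, Mrps16 and Acvrl1 for Icam2, Ednra and Tnik for Vcam1, AABR07050487.1 and Skiv2l2 for Angpt1, Usp13 and Mdga2 for Angpt2, and LOC688708 and Rhbg for Selplg. Their r values were 0.928 to 0.989. Over the deviations within groups most fell far below this, and Socs3, a feedback inhibitor of cytokine signalling, was the one that stayed, with r of 0.949 over the group means and 0.905 over the 30 rats.

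**Figure D4:**
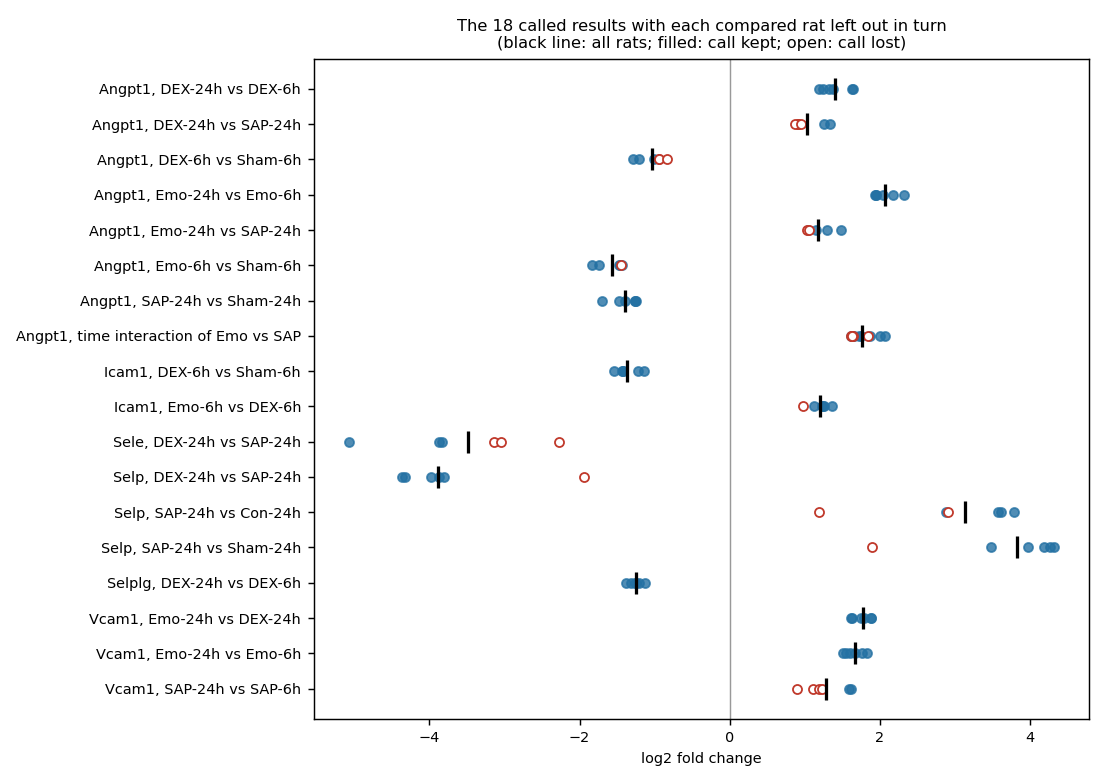
Log2 fold change of the 18 called results with all rats (black line) and with each compared rat left out (filled, call kept; open, call lost). The Selp results in SAP-24h drop to 1.89 and 1.18 without 1 rat, whereas Vcam1 in Emo-24h and Angpt1 in Emo-24h vs Emo-6h keep their place.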

How the data were processed

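The authors clipped adaptors, removed low-quality bases and short reads, used TopHat2 to map the paired reads to a genome they call rat_ensembl_v6, and counted uniquely mapped reads per gene. The deposited counts are whole numbers without normalization, and the deposited FPKM values are rounded to 2 decimals; bcl2fastq and edgeR are also named in the submitters' processing notes. The program that counted reads is not given in the sources used here. Mapping was not repeated.

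From the counts, genes were filtered with filterByExpr (minimum count 10, minimum total 15), scaled by TMM and fitted with edgeR 4.0.16 in R 4.3.3 (limma 3.58.1) as 10 groups over 30 libraries. Levels are FPKM, and standard errors are the log2 fold change over the square root of F. Each library is 1 rat. Tables and figures were made in Python 3.11.15 (numpy 2.4.6, pandas 2.3.3, scipy 1.17.1, matplotlib 3.10.9). On simulated counts of SAP-24h vs Sham-24h (15763 genes), 93 of 100 4-fold changes, 39 of 100 2-fold changes and 7 unchanged genes were called. A true 2-fold change sits on the fold threshold, so that many must miss it. The changes were planted only in genes above a minimum mean count, and each gene had the same spread in all simulated libraries. The recovery therefore does not cover genes with fewer reads or a group with an outlying rat, such as replicate 1 of SAP-24h.

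The 8 genes and all gene lists were chosen with earlier results of these data known. Beside the members, the genes named are, from each list, the called genes with the largest change (at most 4) in SAP-24h vs Sham-24h, in DEX-6h vs SAP-6h, and in either drug group against SAP-24h, and the 2 genes most like each member. Exceptions are marked. Pecam1, Pvr, Nectin2, Trac and Gp1bb were not matched by symbol. Alternatives were RLE scaling, DESeq2 1.42.0, no filter, the compared groups alone, a replicate block, an unadjusted p, no fold threshold, and each library left out in turn.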

Additional observations from a re-analysis of the deposited data

Results flagged for a closer look

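The change of Angpt1 from 6 to 24 hours differed between Emo and SAP by the interaction term, with a log2 value of 1.76 (adjusted p = 0.0235, edgeR), and all 3 rats of Emo-24h were above all 3 of Emo-6h while SAP-24h and SAP-6h overlapped. The call was lost with the 4 compared groups fitted alone (1.75, adjusted p = 0.121), without replicate 2 of SAP-6h (1.85, adjusted p = 0.0660), without replicate 1 of Emo-6h (1.64, adjusted p = 0.0714), without replicate 3 of Emo-6h (1.62, adjusted p = 0.0610) and without replicate 2 of Emo-24h (1.63, adjusted p = 0.0693). Groups of 3 rats were too small for the test of single outlying libraries.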

How the results depend on the processing

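No called log2 fold change reversed. RLE scaling and DESeq2 kept all 18 calls; DESeq2 raised the number of members called to 5 in DEX-24h vs SAP-24h, to 2 in Emo-24h vs SAP-24h, Emo-24h vs DEX-24h and SAP-24h vs SAP-6h, to 3 in DEX-6h vs Sham-6h and to 1 in the DEX interaction. In DEX-24h vs SAP-24h RLE scaling gave 4 and no filter 2. Fitting the compared groups alone, with fewer samples for the spread, kept 6 of 18 calls. The members called fell to 0 in Emo-6h vs DEX-6h, Emo-6h vs Sham-6h, SAP-24h vs Sham-24h, SAP-24h vs Con-24h, DEX-24h vs SAP-24h, SAP-24h vs SAP-6h, Emo-24h vs SAP-24h and the emodin interaction, and to 1 in DEX-6h vs Sham-6h. They rose from 1 to 3 in Emo-24h vs DEX-24h and from 2 to 3 in DEX-24h vs DEX-6h. The replicate numbers did not pair the rats, since all 3 same-numbered correlations passed 0.1 in 2 of 45 pairs of groups and 8 of 30 libraries correlated best with their own number; the replicate block moved SAP-24h vs SAP-6h from 1 to 0 and added Selplg to the calls in DEX-24h vs SAP-24h. Without the fold threshold the counts were 2 in SAP-24h vs Con-24h, 3 in Emo-24h vs DEX-24h and DEX-24h vs DEX-6h, 1 in DEX-24h vs Sham-24h and 4 in Emo-24h vs Emo-6h and DEX-24h vs SAP-24h. By an unadjusted p with 2-fold they were 1 in DEX-6h vs SAP-6h, DEX-24h vs Sham-24h, Emo-24h vs Sham-24h and the SAP interaction, 2 in Emo-6h vs DEX-6h, SAP-24h vs Con-24h, Emo-24h vs SAP-24h, SAP-24h vs SAP-6h and the DEX and emodin interactions, 3 in Emo-24h vs DEX-24h, SAP-24h vs Sham-24h and DEX-24h vs DEX-6h, and 4 in DEX-6h vs Sham-6h and DEX-24h vs SAP-24h. No other count moved under these settings. With 1 rat left out, members called ranged from 0 to 1 in DEX-24h vs Sham-24h, Emo-6h vs DEX-6h and the emodin interaction, 0 to 2 in Emo-24h vs SAP-24h, Emo-6h vs Sham-6h, SAP-24h vs Con-24h and SAP-24h vs SAP-6h, 1 to 2 in DEX-6h vs Sham-6h, Emo-24h vs DEX-24h and SAP-24h vs Sham-24h, 1 to 3 in DEX-24h vs SAP-24h and 2 to 3 in DEX-24h vs DEX-6h. The cause of these shifts was not tested. Depth limits Sele, with as little as 1 read in a library.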

Other observations

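Markers of circulating cells moved between these groups as well. Of 7 T cell markers, 5 fell in SAP-24h vs Sham-24h, where 5.00% of all genes were called. Among them were Cd5 (log2 fold change -2.14), Cd3e, Cd3d (-1.996) and Cd3g (-1.98). Of these, Cd3e and Cd3d, subunits of the T cell receptor complex, were called higher in Emo-24h vs SAP-24h, where 3.19% of all genes were called. Cd3e was 1.97 ± 0.53 FPKM in SAP-24h against 8.89 ± 1.595 FPKM in Sham-24h (SD, n = 3 each; log2 fold change -2.04, edgeR adjusted p = 0.0127). Without replicate 1 of SAP-24h, 1 of the 5 calls remained against Sham-24h, Cd3d (-2.01, adjusted p = 0.0397), and none in Emo-24h vs SAP-24h. In SAP-24h vs Con-24h, where 6.91% of all genes were called, all 7 were called lower, and 5 were without that rat. In DEX-24h vs Sham-24h, against 4.15% of all genes, 6 of the 7 were called lower. In Emo-24h vs DEX-24h, where Vcam1 differed and 5.06% of all genes were called, 6 of the 7 were higher in Emo-24h.

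Of 11 neutrophil markers tested, edgeR called 0 in SAP-24h vs Sham-24h and DESeq2 2, with 4 by unadjusted p, and 10 were higher in SAP-24h vs Con-24h, where 6.91% of all genes were called. Their summed level was 4545 to 16424 FPKM in SAP-24h, 239 to 9299 FPKM in Sham-24h and 136 to 1015 FPKM in Con-24h, so the spread within Sham-24h was wide. Of the 11, edgeR called 4 higher in Sham-24h vs Con-24h and DESeq2 called 7, where edgeR called 1.00% of all genes (median log2 fold change 2.61). In DEX-24h vs SAP-24h, where 3.73% of all genes were called, 2 fell, Ngp and Camp, both of secondary granules. Camp was also lower in Emo-24h vs SAP-24h (log2 fold change -2.21, adjusted p = 0.0316), where 3.19% of all genes were called. It was not called there without replicate 1 of SAP-24h (-2.09, adjusted p = 0.0765). Camp in DEX-24h was still called without replicate 1 of SAP-24h (-2.36, adjusted p = 0.0424), and Ngp was not (-3.70, adjusted p = 0.0683).

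Single markers of other cell types were also called. In SAP-24h vs Sham-24h these were Aqp5, a water channel of alveolar type 1 cells (log2 fold change -1.55, edgeR adjusted p = 0.0421), Krt19, a keratin (-1.34, adjusted p = 0.0156), and Marco, a macrophage receptor, which was 0.377 FPKM in SAP-24h and listed at 0 in Sham-24h. Aqp5 and Krt19 were not called without replicate 1 of SAP-24h (adjusted p = 0.177 and 0.0665). Krt19 was higher in DEX-24h vs SAP-24h (1.53, adjusted p = 0.00949), where 3.73% of all genes were called. The median of the 6 mesothelial markers there was -0.59, and without that rat 1 of them was called lower. Sftpd, a surfactant protein, was lower in Emo-24h vs SAP-24h (-1.01, adjusted p = 0.0367), where 3.19% of all genes were called. It was the only call among 8 alveolar type 2 markers, whose median was -0.485. Krt19 and Sftpd were still called without that rat.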
